A study of Homo sapiens
Mus musculus and Mus musculus and Homo sapiens with 3 samples.

Results

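The histone cluster genes encode the linker histone H1 and the core histones H2A, H2B, H3 and H4 from tandem gene groups, and they were described here in human and mouse cells that were turning from dividing neural progenitors into motor neurons. Members were all gene entries whose symbol began with HIST1H to HIST4H in any letter case. This gave 102 symbols over all files and 50 present in all 4 of them, of 15472 symbols that all 4 files shared. The human files held 71 and 85 members and the mouse files 69 and 69, among 32735 and 56832 human and 27998 and 54087 mouse symbols. At least 1 unique molecular identifier (UMI, the tag that counts 1 captured RNA molecule) was seen for 59 and 63 human members and for 64 and 65 mouse members in the cells used. In human, 59 matched members lay on chromosome 6, 19 on chromosome 1 and 1 on chromosome 12, and in mouse 56 lay on chromosome 13, 10 on chromosome 3, 3 on chromosome 11 and 1 on chromosome 6.

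Pluripotent stem cells had been grown as floating embryoid bodies and directed to motor neurons, marked by a lentivirus with GFP, sorted for GFP and profiled by 10x 3' single-cell RNA sequencing. Mouse cells were sampled every 24 h and human cells every 48 h, and the days within a file cannot be told apart. From 3 samples came 4 library parts. A single mixed library held human replicate 1 (the induced pluripotent line NCRM1) and mouse replicate 1 (C57BL/6 embryonic stem cells), whereas human replicate 2 (RUES1, an induced pluripotent line by its label) and mouse replicate 2 were each sequenced separately. Every group was an in vitro culture that carried the virus, and the sort kept GFP-positive cells only. Nothing in the labels states that the mouse replicates were separate cultures. Each library part was fitted with its own level, so p-values rest on how much the differences between states vary between the parts. In human, the parts also differ in line.

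Most of these genes are switched on while a cell copies its DNA, in S phase. Their messages end in a conserved stem-loop, which the protein SLBP binds and beside which the U7 particle cuts, in place of a poly(A) tail. Some members also give polyadenylated messages, which have been described in cells that no longer divide. The libraries capture poly(A) ends, so the values below are the part of histone RNA that such capture sees, and no total histone RNA was measured. A UMI is counted once per molecule, so levels in CPM (UMIs of a gene per 1000000 UMIs) are not scaled by gene length.

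The stem-loop could be read in mouse, where GENCODE vM21 transcripts on GRCm38 (the build mm10) match the build of the files. The motif searched, on the sense strand, was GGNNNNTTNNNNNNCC with the 4 inner bases of each arm complementary. It was present in 44 of 67 mouse members (65.7%), against 32 of 18054 other coding transcripts of 300 to 3000 bases (0.177%). The form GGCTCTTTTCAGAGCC accounted for 26 of the 44. The annotated transcript ran on for 151 to 4884 bases after the loop in 22 members and stopped within 3 to 74 bases of it in the other 22, and no loop was found in 23 members. Some of the 23 have short annotated transcripts, such as Hist1h2ak (393 bases), Hist1h2bn (381) and Hist1h4k (312). A transcript annotated to end before the loop cannot show it, so no loop found does not mean that the gene lacks one. Sequences are shown for the 4 members that stayed on in neurons (Hist3h2ba, Hist3h2a, Hist1h1c, Hist1h1e), for the most abundant one (Hist1h2ap), for one that was higher in RRM2-positive progenitors (Hist1h4i) and for one that was nearly gone from neurons (Hist2h2ac). Capitals mark the stem-loop.
Hist3h2ba: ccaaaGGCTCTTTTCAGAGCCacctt
Hist3h2a: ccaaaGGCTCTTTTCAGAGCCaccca
Hist1h1c: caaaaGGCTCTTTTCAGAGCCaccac
Hist1h1e: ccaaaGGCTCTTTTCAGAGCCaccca
Hist1h2ap: aaaaaGGCTCTTTTCAGAGCCatc
Hist1h4i: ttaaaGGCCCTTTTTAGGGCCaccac
Hist2h2ac: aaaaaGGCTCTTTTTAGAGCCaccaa
The loop itself was thus the same in members that stayed on and in Hist1h2ap. The transcripts differed in what followed, with 169 bases after the loop in Hist3h2ba (chr11:58948920-58949533, plus strand), 1643 in Hist3h2a (chr11:58954685-58956830, plus strand), 840 in Hist1h1c (chr13:23738808-23740367, plus strand) and 1153 in Hist1h1e (chr13:23620629-23622558, minus strand). After the loop Hist1h2ap had 3 bases (chr13:21833026-21833507, minus strand), Hist1h4i had 330 (chr13:22040636-22041362, minus strand) and Hist2h2ac had 57 (chr3:96220361-96220880, minus strand).

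The deposited files held 2407 and 2044 human and 1881 and 2783 mouse cells with 28577630 to 83969715 UMIs per library part, of which 1927, 1461, 1744 and 2521 cells were used. Cells were placed in states by marker UMIs after each cell had been thinned at random to 7000 UMIs. Progenitors had at least 1 UMI of SOX2, a progenitor transcription factor, and none of STMN2, a neuronal tubulin regulator. They were split by RRM2, a subunit of ribonucleotide reductase that peaks with DNA synthesis, and TOP2A, the topoisomerase that peaks towards mitosis. Neurons had at least 3 UMIs of STMN2 and none of SOX2. In the order neurons, RRM2-only, TOP2A-only, both and neither, human replicate 1 gave 294, 139, 192, 259 and 478 cells and human replicate 2 gave 315, 54, 233, 137 and 382 cells. Mouse replicate 1 gave 180, 264, 56, 423 and 134 cells and mouse replicate 2 gave 443, 259, 115, 545 and 111 cells. All 9 neuronal markers were higher in neurons than in RRM2-only progenitors in each species, and 8 of 9 progenitor markers were lower. Each list includes its gating gene, STMN2 or SOX2, whose direction the gates fixed in advance. TUBB3, a neuronal marker, had no UMI in any state of human replicate 1. Of the S phase genes tested, 17 of 17 human and 18 of 18 mouse genes were lower in neurons (edgeR quasi-likelihood test, adjusted p under 0.05).

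The replicates of a species stood apart in the histone genes themselves. They had been counted on different sets of gene entries, and HIST2H2AA3 and Hist2h2aa1, for example, had UMIs only in replicate 1 among the states compared. Hist1h2ap held 46.8% to 94.4% of all histone UMIs in the states of mouse replicate 1 and 0.757% to 11.05% in those of mouse replicate 2. The cause of these gaps was not tested, so levels are given for each library part and changes are taken within a part. Neighbouring near-identical copies, such as HIST2H2AA3 and HIST2H2AA4, HIST2H4A and HIST2H4B, or Hist2h2aa1 and Hist2h2aa2, can share reads and are uncertain one by one. The same holds for Hist1h1e, whose annotated 3' end overlaps Hist1h2be on the same strand. Markers of other cells were present, most of all in progenitors of human replicate 2. Summed mesenchymal markers came to 12.6 and 14.1 CPM in human neurons, 17.4 and 143 in RRM2-only, 9.18 and 356 in TOP2A-only and 24.3 and 328 in neither progenitors of replicates 1 and 2, and PRRX1 was at 0 in the neurons and RRM2-only progenitors of both. Summed epithelial markers came to 51.0 and 55.2 CPM in human neurons, 86.7 and 70.0 in RRM2-only and 109 and 247 in neither progenitors. Of the listed pluripotency markers only DPPA4 had UMIs in human RRM2-only progenitors, at 57.1 and 88.7 CPM, and POU5F1, NANOG and ZFP42 were at 0. Of the listed mesenchymal markers 3 of 6 tested were lower in human neurons than in RRM2-only progenitors, as were 3 of 4 tested epithelial markers in human and 5 of 5 in mouse. Their part in the histone values was not tested.

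Taken as 1 sum, histone UMIs were lower in neurons than in RRM2-only progenitors in 3 of the 4 library parts. In human replicate 1 the sum was 513 CPM in neurons, 1976 in RRM2-only, 2908 in TOP2A-only, 4952 in both and 593 in neither progenitors. Human replicate 2 gave 502, 3795, 6070, 7420 and 1092 CPM in the same states. Both human parts thus had their lowest sum in neurons and their highest in cells with both markers. Mouse replicate 1 gave 797 CPM in neurons, 2593 in RRM2-only, 4493 in TOP2A-only, 5088 in both and 1007 in neither progenitors. Mouse replicate 2 gave 691, 518, 692, 771 and 543 CPM, so there neurons were above RRM2-only progenitors. The means were 508 ± 7.31 CPM in human neurons and 2886 ± 1286 in human RRM2-only progenitors, and 744 ± 75.4 CPM in mouse neurons and 1555 ± 1467 in mouse RRM2-only progenitors (SD, n = 2 each). The mouse progenitor SD was nearly as large as its mean.

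**Figure D1:**
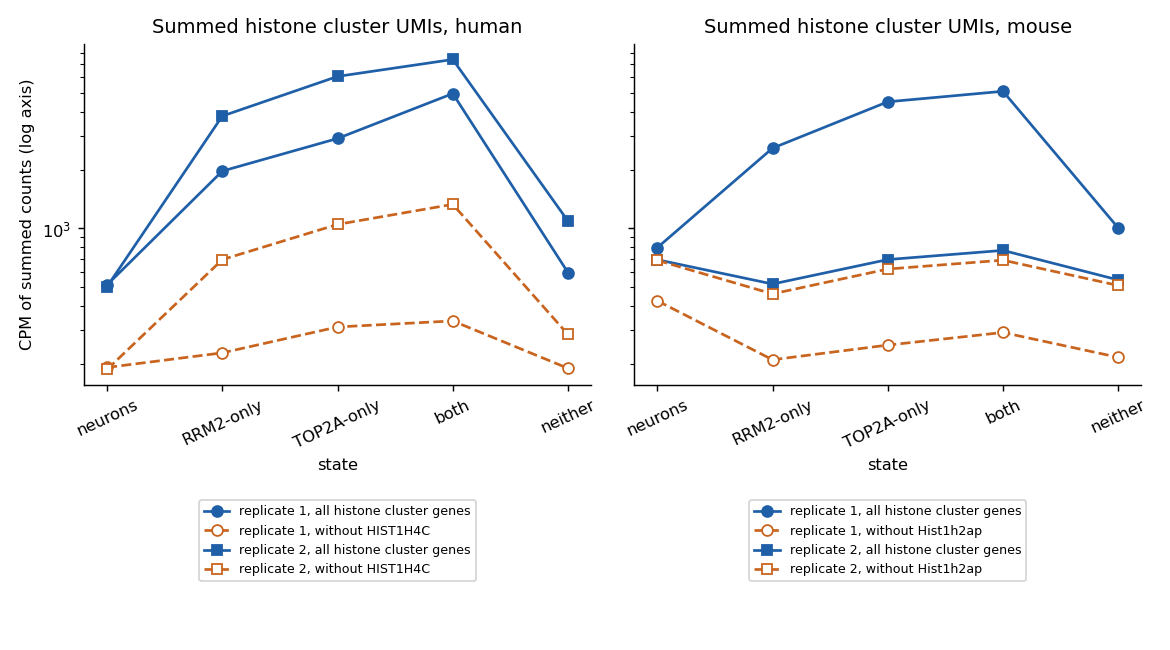
Summed CPM of all histone cluster genes (solid, blue) and of all but the most abundant one (dashed, orange) in each state, on a log axis, for human (left) and mouse (right); circles are replicate 1 and squares replicate 2, with 1 value per library part. Human neurons sit at 513 and 502 CPM, below every other state. Without Hist1h2ap, mouse neurons sit above RRM2-only progenitors in both replicates, and Hist3h2ba and Hist3h2a make up most of that neuron sum.

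A single gene made most of the sum in every human state and in the progenitors of mouse replicate 1, but not in mouse replicate 2. HIST1H4C, an H4 gene at chr6:26103933-26104337 (GRCh38), held 62.5% to 93.3% of human histone UMIs in every state. Without it, human replicate 1 had 192 CPM in neurons and 229 in RRM2-only progenitors, and human replicate 2 had 188 and 692 CPM, so the neurons stayed lower in both. Without Hist1h2ap, an H2A gene, mouse replicate 1 had 424 CPM in neurons and 211 in RRM2-only progenitors, and mouse replicate 2 had 685 and 460 CPM. The direction in mouse replicate 1 therefore turned with the removal of that gene. In neurons, most of what was left came from Hist3h2ba, at 259 and 463 CPM, and Hist3h2a, at 75.2 and 111 CPM. In RRM2-only progenitors Hist3h2ba read 23.7 and 23.9 CPM and Hist3h2a 6.29 and 8.45 CPM. These 2 were the only tested mouse members called higher in neurons, and 34 of 45 were called lower. H2B made up 34.8% and 71.1% of histone UMIs in mouse neurons, against 2.45% and 19.6% in mouse RRM2-only progenitors. In human, H4 made up 66.4% and 64.9% in neurons, against 89.4% and 83.7% in RRM2-only progenitors.

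Most cells held a histone UMI in every state. At 7000 UMIs per cell the share with at least 1 was 91.5% (95% Clopper-Pearson interval 87.7% to 94.4%) and 92.4% (88.9% to 95.1%) of human neurons, against 92.1% (86.3% to 96.0%) and 100% (93.4% to 100%) of human RRM2-only progenitors. It was 92.8% (88.0% to 96.1%) and 95.7% (93.4% to 97.4%) of mouse neurons, against 93.2% (89.4% to 95.9%) and 91.9% (87.9% to 94.9%) of mouse RRM2-only progenitors. These intervals cover counting error only, and shares this close to 100% leave little room for a difference to show. In human replicate 2 the TOP2A-only share, 98.3% (95.7% to 99.5%), lay above the neuron interval. With cells thinned to 5000 UMIs, human replicate 2 had 83.8% of neurons and 98.1% of RRM2-only progenitors. Mouse replicate 2 had 93.0% of neurons and 84.2% of RRM2-only progenitors. These shares count every member of a file, among them Hist3h2ba, which is not in all files. The species are therefore not compared by them. In replicate 1 the shares at 5000 UMIs were 86.7% of human neurons and 90.6% of human RRM2-only progenitors, and 85.6% of mouse neurons and 86.7% of mouse RRM2-only progenitors. Before thinning the shares were 96.3% and 97.8% in human neurons and 97.8% and 99.1% in mouse neurons. No cell type here should lack histones. RRM2, which neurons should lack, read 5.81 and 0.902 CPM in human neurons, and 69.1 and 26.0 in those of mouse, against 198 and 120 CPM in human RRM2-only progenitors and 421 and 340 CPM in those of mouse. The part of free RNA in the neuron values was not tested.

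Which members stayed on after cell cycle exit was asked first by setting neurons against RRM2-only progenitors. Of the 71 members in both human files, 48 passed the low-count filter and were tested; 2 were higher in neurons and 26 lower (edgeR quasi-likelihood test with Benjamini-Hochberg adjustment). Over all 12419 human genes tested 25.5% were higher and 24.8% lower (50.3% together). Of the 67 members in both mouse files, 45 were tested, 2 were higher and 34 lower, where 30.7% of 11176 genes were higher and 30.7% lower (61.4% together). The median log2 fold change of the tested members was -2.64 in human and -2.42 in mouse, beside 0.05 and 0.02 over all genes. The filter keeps members that are high in any state, so these counts are of the members that passed it.

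**Figure D2:**
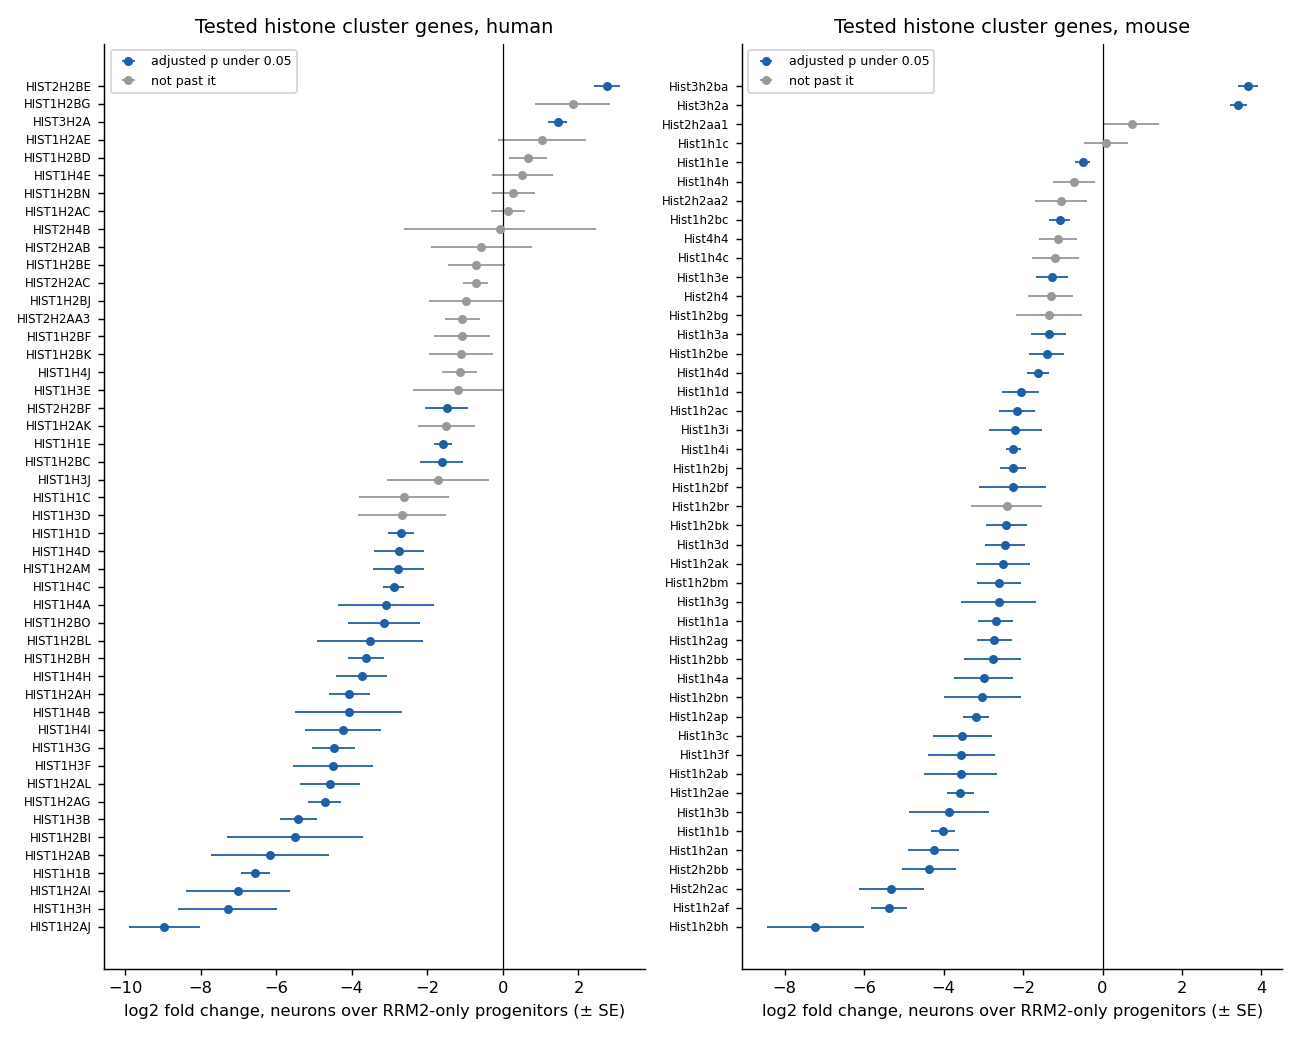
Log2 fold change of neurons over RRM2-only progenitors with its standard error for every tested histone cluster gene, in human (left, 48 genes) and mouse (right, 45 genes); blue marks adjusted p under 0.05. Most genes lie left of 0, and 2 called genes in each species lie right of it: HIST2H2BE and HIST3H2A in human, Hist3h2ba and Hist3h2a in mouse.

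The mouse genes that rose in neurons lay near each other on chromosome 11, with 5151 bases between them. Another member, the pseudogene Hist3h2bb-ps (chr11:58954048-58954512, minus strand), lies in that gap; it was in the file of replicate 2 only and was not tested. Hist3h2ba, an H2B gene, had 259 and 463 CPM in neurons of replicates 1 and 2, 23.7 and 23.9 in RRM2-only, 31.9 and 37.9 in TOP2A-only, 18.8 and 31.2 in both and 86.2 and 78.5 in neither progenitors. Its log2 fold change in neurons was 3.67 ± 0.24 (SE) over RRM2-only progenitors (edgeR adjusted p = 2.01e-06) and 1.96 ± 0.23 over neither progenitors (adjusted p = 0.000137). Neurons were above every progenitor state in both replicates. At equal depth it was seen in 71.7% (64.5% to 78.1%) and 88.7% (85.4% to 91.5%) of neurons, against 14.02% (10.1% to 18.8%) and 15.4% (11.3% to 20.4%) of RRM2-only progenitors. Hist3h2a, an H2A gene, had 75.2 and 111 CPM in neurons, 6.29 and 8.45 in RRM2-only, 12.6 and 8.92 in TOP2A-only, 6.196 and 8.44 in both and 16.8 and 22.7 in neither progenitors. Its change was 3.42 ± 0.22 over RRM2-only (adjusted p = 9.18e-07) and 2.10 ± 0.22 over neither progenitors (adjusted p = 4.79e-05). It was seen in 35.0% and 46.7% of neurons and in 6.44% and 7.72% of RRM2-only progenitors.

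In human the H2A gene of the same name also rose, and its neighbour could not be followed. HIST3H2A (chr1:228457364-228457873) had 7.10 and 82.5 CPM in neurons of replicates 1 and 2, 4.76 and 26.4 in RRM2-only, 2.04 and 21.4 in TOP2A-only, 1.70 and 23.2 in both and 4.70 and 50.4 in neither progenitors. Replicate 2 was above replicate 1 in every state, and within each part neurons were highest. The change in neurons was 1.45 ± 0.25 over RRM2-only (edgeR adjusted p = 6.03e-05) and 0.68 ± 0.18 over neither progenitors (adjusted p = 0.00381). Without human replicate 2 the call over RRM2-only was lost, at 0.49 (adjusted p = 0.568), and DESeq2 gave the change over neither progenitors an adjusted p of 0.106. That call was also lost without replicate 1 (0.68, adjusted p = 0.0688) and without replicate 2 (0.42, adjusted p = 0.550). HIST3H2BB, 229 bases away, had 17 and 35 UMIs over all states and was not tested. HIST2H2BE (chr1:149884459-149886682), an H2B gene, had 52.6 and 2.35 CPM in neurons, 6.87 and 0.778 in RRM2-only, 13.6 and 0.848 in TOP2A-only, 13.9 and 0.534 in both and 18.8 and 0.847 in neither progenitors. Here replicate 1 was the higher one, and again neurons were highest in each part. The change was 2.75 ± 0.35 over RRM2-only (adjusted p = 1.26e-06) and 1.33 ± 0.24 over neither progenitors (adjusted p = 8.58e-05). It rested on replicate 1, since without it the 13 neuron UMIs of replicate 2 gave 1.55 (adjusted p = 0.428) and 1.41 (adjusted p = 0.241).

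**Figure D3:**
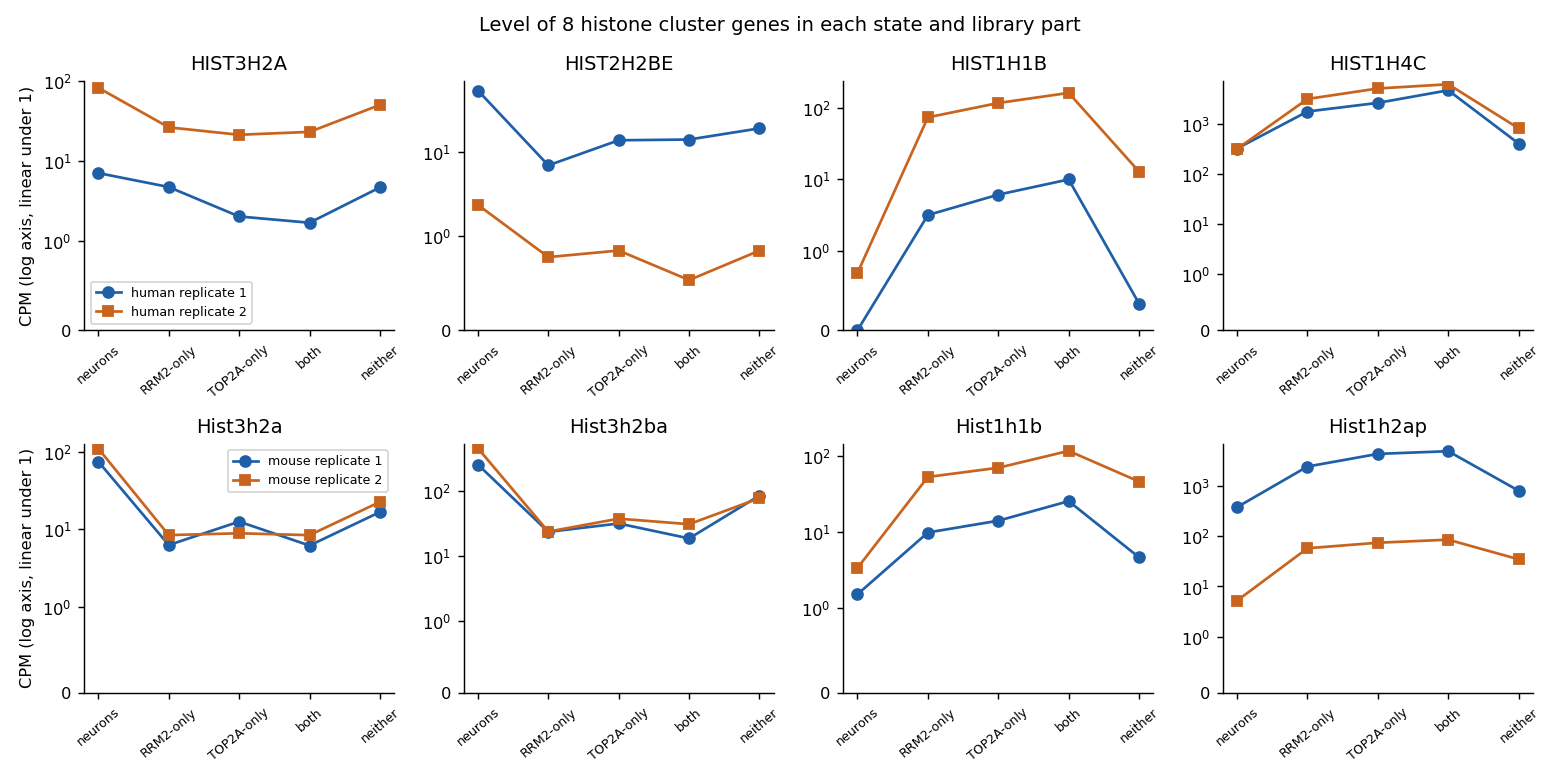
CPM of 8 histone cluster genes in each state on a log axis that is linear under 1, human above and mouse below; blue circles are replicate 1 and orange squares replicate 2, with 1 value per library part. HIST3H2A, HIST2H2BE, Hist3h2a and Hist3h2ba are highest in neurons in both replicates, while HIST1H1B, HIST1H4C, Hist1h1b and Hist1h2ap are lowest there.

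A descriptive rule asked which members stayed on: at least 10 UMIs in neurons of each part and a neuron level of at least 0.5 times that of RRM2-only progenitors in each part. It was met by 6 human members, HIST3H2A, HIST2H2BE, HIST2H2AC, HIST1H2AC, HIST1H4E and HIST1H2BN, and by 4 mouse members, Hist3h2ba, Hist3h2a, Hist1h1c and Hist1h1e. HIST1H2AC, an H2A gene, had 6.14 and 11.7 CPM in neurons and 4.76 and 10.9 in RRM2-only progenitors. HIST1H4E, an H4 gene, had 9.36 and 1.99 against 4.76 and 1.56 CPM, and HIST1H2BN, an H2B gene, had 3.55 and 3.07 against 2.64 and 2.33 CPM, in the same order. HIST2H2AC, 235 bases from HIST2H2BE, was closest to the limit among the human members, with 4.84 and 14.8 CPM in neurons and 8.99 and 21.8 in RRM2-only progenitors. None of these 4 passed the test. The rule sets no lowest count for RRM2-only progenitors. In those of human replicate 2, 1 UMI is 0.778 CPM, so the levels of HIST1H4E, HIST1H2BN and HIST2H2BE there rest on few UMIs. A limit of 0.25 would also admit HIST1H1E and HIST1H4J in human and Hist1h2bc, an H2B gene, in mouse. Hist1h2bc lay closest outside the limit, with 11.1 and 18.3 CPM in neurons and 25.1 and 27.6 in RRM2-only progenitors, ratios of 0.440 and 0.663. In mouse, Hist1h1c, a linker histone, had 13.4 and 4.84 CPM in neurons and 4.85 and 7.79 in RRM2-only progenitors, so the replicates went opposite ways, and its change of 0.09 ± 0.56 did not pass. Hist1h1e, another linker histone, had 11.5 and 17.7 CPM in neurons and 13.7 and 20.9 in RRM2-only progenitors, and its small fall passed the test (-0.49 ± 0.19, edgeR adjusted p = 0.0406), although gates on unthinned counts turned its sign (0.17). A limit of 1 left 5 human members (all but HIST2H2AC) and 2 mouse members (Hist3h2ba and Hist3h2a).

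Other linker histones were lower in neurons. HIST1H1B, the H1.5 gene, had 0 and 0.722 CPM in human neurons, 3.17 and 73.9 in RRM2-only, 6.12 and 117 in TOP2A-only, 9.98 and 162 in both and 0.336 and 12.8 in neither progenitors. Its change over RRM2-only progenitors was -6.55 ± 0.38 (edgeR adjusted p = 1.19e-11), resting on 4 UMIs in neurons against 101. Mouse Hist1h1b had 1.53 and 3.39 CPM in neurons and 9.88 and 53.0 in RRM2-only progenitors, a change of -4.02 ± 0.31 (adjusted p = 2.51e-06). HIST1H1E was lower in human neurons, with 4.20 and 22.7 CPM against 12.7 and 68.5 in RRM2-only progenitors (-1.59 ± 0.24, adjusted p = 1.22e-05). HIST1H1C had 13.9 and 9.74 CPM in neurons and 20.1 and 129 in RRM2-only progenitors, and it did not pass (-2.62 ± 1.18, adjusted p = 0.143). In all, 3 of 4 tested human H1 members and 4 of 5 mouse ones, Hist1h1e among them, were lower, and none was higher. Over all genes tested, 24.8% were lower in human and 30.7% in mouse.

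Among H4 genes the most abundant human member fell. HIST1H4C had 320 and 314 CPM in neurons, 1747 and 3104 in RRM2-only, 2597 and 5020 in TOP2A-only, 4618 and 6088 in both and 402 and 808 in neither progenitors. The change was -2.89 ± 0.27 over RRM2-only (edgeR adjusted p = 0.000892) and -0.92 ± 0.26 over neither progenitors (adjusted p = 0.0397). The second call was lost without replicate 2 (adjusted p = 0.162), with gates on unthinned counts (0.100), with no low-count filter (0.0745) and with the both-positive cells merged (0.0580). Even so, 72.1% (66.6% to 77.2%) and 73.7% (68.4% to 78.4%) of human neurons held a HIST1H4C UMI at equal depth, against 84.2% (77.0% to 89.8%) and 94.4% (84.6% to 98.8%) of RRM2-only progenitors. The UMIs were uneven between neurons: 30 of 294 and 42 of 315 neurons with 5 or more held 41.5% and 34.7% of them. Of the tested H4 members 6 of 9 in human and 3 of 7 in mouse were lower, and none was higher. Over all genes tested, 24.8% were lower in human and 30.7% in mouse, so nothing is read from the mouse H4 count. Mouse Hist1h4i had 11.8 and 14.4 CPM in neurons and 40.6 and 63.5 in RRM2-only progenitors (-2.25 ± 0.19, adjusted p = 3.93e-06).

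The H2A group held both directions. Hist1h2ap had 373 and 5.23 CPM in mouse neurons, 2382 and 57.2 in RRM2-only, 4242 and 73.6 in TOP2A-only, 4797 and 84.5 in both and 790 and 34.5 in neither progenitors. Despite the gap between replicates the change was -3.18 ± 0.33 over RRM2-only progenitors (edgeR adjusted p = 0.000111). In replicate 1, 6 of 180 neurons held 75.4% of the neuronal Hist1h2ap UMIs, and without those 6 cells the level was 95.1 CPM. HIST1H2AJ had no UMI in human neurons of either part, against 34 in RRM2-only progenitors, where it read 3.70 and 21.003 CPM; taking 3 counts over both parts as the limit of a 0, it was at least 30.8-fold lower. HIST1H2AI (9 UMIs in RRM2-only progenitors, at least 8.16-fold lower) and HIST1H2AB (5 UMIs, at least 4.53-fold) were also at 0 in human neurons. HIST1H2AG had 0 and 1.62 CPM in neurons and 11.1 and 33.4 in RRM2-only progenitors (-4.72 ± 0.44, adjusted p = 1.36e-08). Mouse Hist2h2ac had 1 UMI in neurons and 41 in RRM2-only progenitors, a 36.5-fold lower level with a counting interval of 6.19 to 1475. In total 1 of 14 tested human H2A members was higher and 7 lower, and 1 of 12 mouse members was higher and 9 lower. Over all genes tested, 25.5% were higher and 24.8% lower in human, and 30.7% higher and 30.7% lower in mouse.

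H2B was the group in which the most human members did not pass. Of 14 tested, 1 was higher, 6 were lower and the remainder were not called, while in mouse 1 of 13 was higher and 10 were lower. Over all genes tested, 25.5% were higher and 24.8% lower in human, and 30.7% higher and 30.7% lower in mouse. HIST1H2BK had 30.7 and 0 CPM in human neurons and 51.8 and 4.67 in RRM2-only progenitors, and its change of -1.10 ± 0.85 did not pass. HIST1H2BD, another H2B gene, had 12.6 and 1.26 CPM in neurons, 6.34 and 1.56 in RRM2-only and 3.19 and 0.282 in neither progenitors. It was higher in neurons than in neither progenitors (1.81 ± 0.43, edgeR adjusted p = 0.00146), and the change over RRM2-only progenitors was 0.67 ± 0.49 (adjusted p = 0.273). HIST1H2BI was at 0 in human neurons, against 4 UMIs in RRM2-only progenitors (at least 3.62-fold lower). Mouse Hist1h2bh was at 0 in neurons against 32 UMIs (at least 9.49-fold lower). No H3 member was higher: 4 of 7 tested human and 8 of 8 tested mouse members were lower. HIST1H3B had 0 and 0.722 CPM in human neurons and 3.17 and 31.9 in RRM2-only progenitors (-5.41 ± 0.49, adjusted p = 9.27e-09), and HIST1H3H was at 0 in neurons, against 11 UMIs (at least 9.97-fold lower).

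Neurons were then set against neither progenitors, which held no RRM2 or TOP2A UMI after thinning. Summed S phase genes still came to 1121 and 1382 CPM in human and 907 and 1619 in mouse neither progenitors. In neurons they came to 289 and 201 CPM in human and 376 and 331 in mouse. The neither cells are thus not shown to be out of the cell cycle. In human, 4 members were higher in neurons and 17 lower, where 25.1% of all genes were higher and 25.7% lower (50.8% together). The higher ones were HIST3H2A, HIST2H2BE, HIST1H2BD and HIST1H2BG, and the last had 3.87 and 0.541 CPM in neurons and 0.671 and 0.282 in neither progenitors (1.91 ± 0.72, edgeR adjusted p = 0.0315). In mouse 2 members were higher, Hist3h2ba and Hist3h2a, and 26 lower, where 22.3% of all genes were higher and 23.8% lower (46.1% together). The median change was -1.18 in human and -1.93 in mouse. Only 12 of the 17 lower human members and 21 of the 26 lower mouse members were lower in both library parts. Without human replicate 2 the human count was 2, and without mouse replicate 2 the mouse count was 1. Fits without a replicate covered only symbols in all 4 files, so members such as Hist3h2ba could not be called in them. Those counts are thus over fewer members. Gates on unthinned counts gave 7 in human and 3 in mouse, and DESeq2 gave 12 in human.

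For neurons against RRM2-only progenitors, the total of 28 human calls came to 8 without human replicate 2 and 22 without human replicate 1. The total of 36 mouse calls came to 8 without mouse replicate 2 and 33 without mouse replicate 1. Here too the fits without a replicate covered only the 50 members with symbols in all 4 files. Hist3h2ba, Hist1h2ap and HIST1H2AJ, for example, could not be called in them, so the falls are not loss of support alone. Gates on unthinned counts gave 16 in human and 16 in mouse.

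Within progenitors, RRM2-only cells were set against neither cells, which also serve in the comparisons with neurons above. In human, 14 members were higher in RRM2-only than in neither progenitors and 1 was lower, where 5.15% of all genes were higher and 2.53% lower (7.68% together), and the median change was 1.25. HIST1H2AJ (2.95 ± 0.45, edgeR adjusted p = 0.000184), HIST1H3G (2.63 ± 0.43, adjusted p = 0.000291), HIST1H1B (2.51 ± 0.24, adjusted p = 6.28e-07) and HIST1H4C (1.98 ± 0.25, adjusted p = 0.0191) were among them, and HIST2H2BE was the lower one (-1.42 ± 0.38, adjusted p = 0.0229). All 14 were higher in both parts. The total of 15 came to 4 without human replicate 1, 1 without human replicate 2, 8 with DESeq2, 7 with gates on unthinned counts and 36 when cells with both markers joined the RRM2 class. In mouse, 1 member was higher, Hist1h4i (0.75 ± 0.18, adjusted p = 0.0463), and 2 were lower, Hist3h2ba (-1.70 ± 0.25, adjusted p = 0.0124) and Hist3h2a (-1.32 ± 0.25, adjusted p = 0.0229), where 1.45% of genes were higher and 2% lower (3.44% together). Leaving out either mouse part left 1 call. Hist3h2ba could not be called in those fits, which covered only symbols in all 4 files. The human fits without a replicate had the same limit. The change of Hist1h2ap, 1.36 ± 0.33, did not pass (edgeR adjusted p = 0.0724). The mouse neither cells were fewer, at 134 and 111, and still held RRM2 at 80.6 and 116 CPM, against 12.9 and 11.7 CPM in human neither cells. They also held more neuronal RNA. Summed neuronal markers came to 928 and 379 CPM in mouse neither cells of replicates 1 and 2, against 201 and 86.9 CPM in RRM2-only progenitors. The 2 lower members, Hist3h2ba and Hist3h2a, are also those higher in neurons. The part of either in the mouse counts was not tested.

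Few members differed between the cycling classes. In TOP2A-only against RRM2-only progenitors 3 human members were higher and none lower, where 1.79% of all genes were higher and 0.837% lower. These were HIST2H2AC, with 12.9 and 58.0 against 8.99 and 21.8 CPM (1.13 ± 0.28, edgeR adjusted p = 0.0263), HIST1H3B (1.07 ± 0.26, adjusted p = 0.0219) and HIST1H1B (0.73 ± 0.20, adjusted p = 0.0469). None of the 3 calls was made without either human part, with both-positive cells in the RRM2 class, which turned all 3 signs, or in a joint fit of both species, and DESeq2 made 1 call, of another member. Another random thinning gave 1 call and no low-count filter gave 6. Summed mesenchymal markers moved with this comparison in replicate 2, at 356 CPM in TOP2A-only and 143 in RRM2-only progenitors, and not in replicate 1, at 9.18 and 17.4 CPM; 1 of 6 tested was higher, and their part in the result was not tested. In mouse edgeR called no member and DESeq2 called 0, although 5 members passed an unadjusted p of 0.05 in edgeR; 0.0268% of genes were higher and 0.00895% lower (0.0358% together).

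The length of annotated transcript after the stem-loop was set beside these changes in mouse, as a description. Members with more than 100 bases after the loop numbered 22, of which 18 were tested, 2 were higher and 11 lower in neurons, with a median log2 change of -1.37. All 4 mouse members that stayed on at the limit of 0.5 were in this class, whereas Hist1h2bc, admitted at 0.25, had no loop found. Members whose transcript stopped within 100 bases numbered 22, of which 15 were tested, none was higher and 12 were lower, with a median of -2.61. Those with no loop found numbered 23, of which 12 were tested, none was higher and 11 were lower, with a median of -2.84. Some of these have short annotated transcripts, so this is not a class of genes known to lack the loop. Among tested members 34 of 45 were lower overall. The poly(A) signal AATAAA stood within the last 50 bases of 9 long transcripts, 0 short ones and 2 without a loop, where 44.2% of the 18054 other coding transcripts had it. Hist3h2ba, Hist3h2a and Hist1h1c had it, and Hist1h1e did not. A long tail did not by itself go with staying on, since Hist1h2bh, with 1214 bases after the loop, had no UMI in neurons. Hist1h2ap had 73824 UMIs in these cells although its annotated transcript stops 3 bases after the loop, and the annotation the files were counted on was not given in the sources used here.

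**Figure D4:**
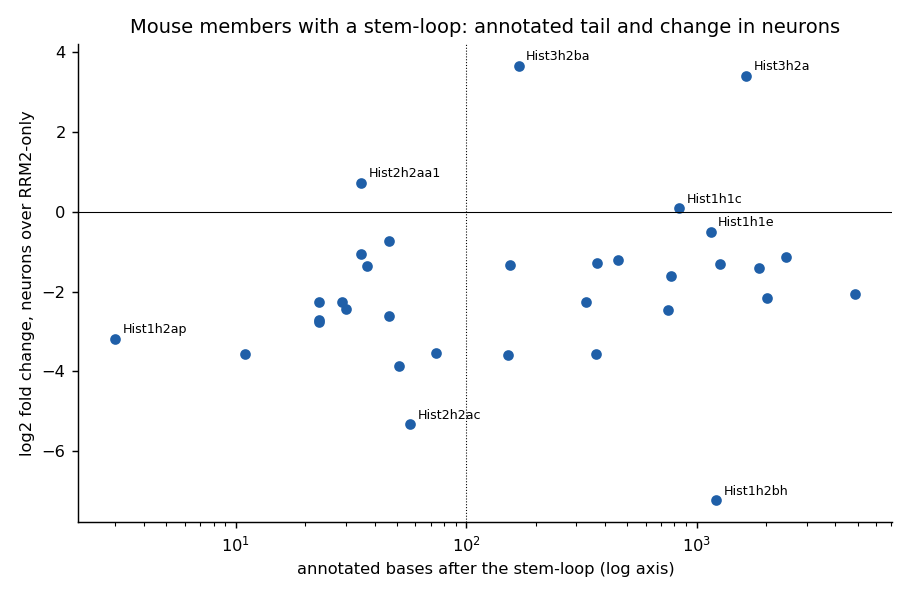
Log2 fold change of neurons over RRM2-only progenitors against the annotated bases after the stem-loop (log axis) for the tested mouse members with a loop, 1 point per gene; the dotted line is at 100 bases. The points above 3 are Hist3h2ba, with 169 bases, and Hist3h2a, with 1643, and the lowest is Hist1h2bh, with 1214.

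Symbols present in all files allowed human and mouse changes to be set side by side, with the caution that a shared symbol in these tandem genes does not prove that the genes correspond. Of 29 symbols tested in both species, 13 were lower in neurons than RRM2-only progenitors in both, which was 86.7% of the 15 lower in human and 54.2% of the 24 lower in mouse. Since 24 of the 29 were lower in mouse in any case, a high share of the human calls is shared whether or not the calls in the 2 species are related, and nothing is read from this overlap. HIST3H2A was the only one higher in both, and none was called in opposite directions. The difference of the changes (human minus mouse) was tested in 1 fit of all 4 parts for 44 of the 50 shared members, and 5 were higher and 6 lower, where 11.8% of 11329 symbols were higher and 11.7% lower. These counts are near the shares over all symbols, so nothing is read from them about the members as a group. HIST3H2A rose less in human (-2.004 ± 0.36, edgeR adjusted p = 0.000559), and that call was kept without each library part in turn. HIST2H2AC differed by 4.49 ± 0.92 (edgeR adjusted p = 0.00162). It had 4.84 and 14.8 CPM in human neurons and 8.99 and 21.8 in human RRM2-only progenitors, and 0 and 0.0968 CPM in mouse neurons and 2.16 and 3.23 in mouse RRM2-only progenitors. The call was lost without mouse replicate 2 (adjusted p = 0.0949). HIST2H2BE (2.81 ± 0.71, adjusted p = 0.00757) was lost without human replicate 1 (0.554) and without mouse replicate 1 (0.125). The total of 11 came to 5 with another random thinning, 2 with gates on unthinned counts, 6 without human replicate 1, 4 without human replicate 2 and 4 without mouse replicate 2.

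**Figure D5:**
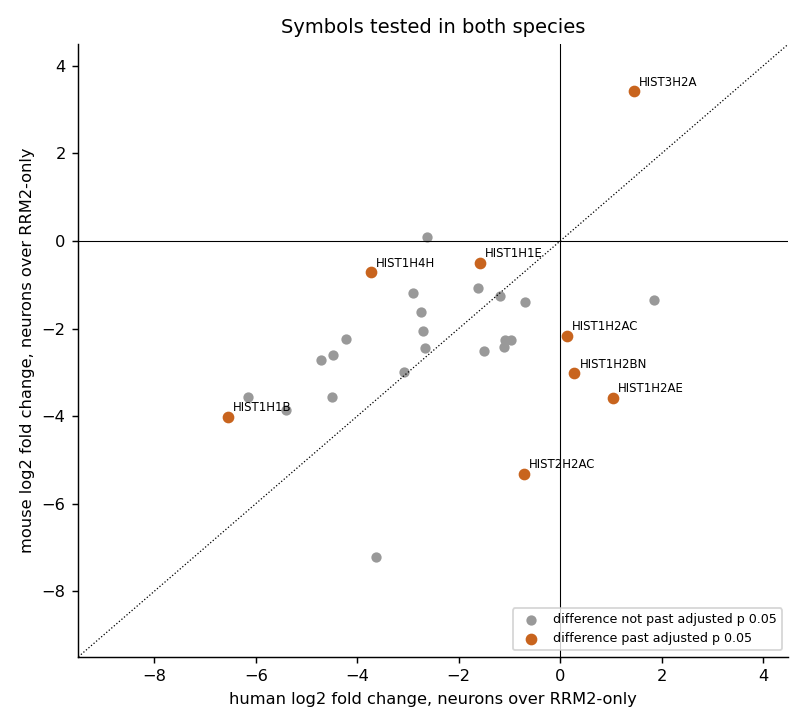
Log2 fold change of neurons over RRM2-only progenitors in human (x axis) and mouse (y axis) for the 29 histone symbols tested in both species, 1 point per symbol; orange marks a difference between species past adjusted p 0.05 and the dotted line is equality. HIST3H2A is the only symbol in the upper right quadrant, and HIST2H2AC, HIST1H2AC, HIST1H2BN and HIST1H2AE lie below the line.

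The machinery around these genes was followed in lists. Of the 18 listed genes for histone pre-mRNA processing and transcription, 17 were tested in each species. In human neurons 9 were lower and 2 higher than in RRM2-only progenitors, and in mouse neurons 12 were lower and none higher. Over all genes tested, 24.8% were lower and 25.5% higher in human neurons, and 30.7% were lower and 30.7% higher in mouse neurons. SLBP, the stem-loop binding protein, had 39.7 and 38.3 CPM in human neurons and 125 and 161 in RRM2-only progenitors (-1.90 ± 0.13, edgeR adjusted p = 8.42e-11). In mouse it had 68.7 and 76.5 CPM in neurons and 216 and 338 in RRM2-only progenitors (-2.15 ± 0.15, adjusted p = 1.20e-06). SLBP was thus lower in neurons in all 4 parts. E2F1, CCNE1, CCNE2 and CDK2, which act at the start of S phase, were lower in both species, at -3.47, -3.34, -3.39 and -2.82 in human and -1.42, -2.82, -3.93 and -3.26 in mouse. LSM10, a protein of the U7 particle, was higher in human neurons by 0.43 ± 0.17 (adjusted p = 0.0392), and its mouse change of -0.16 ± 0.17 did not pass. Of the histone chaperones, which hand histones to DNA, 13 of 19 tested human and 13 of 18 tested mouse genes were lower and none was higher.

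Replacement histones, which are made from solitary genes with poly(A) tails, included higher and lower genes. Of 11 tested in each species, 3 were higher in neurons, a share near the 25.5% of human and 30.7% of mouse genes that were higher overall. The 3 were the same in both species: H3F3B, H3F3A and H1F0, which encode the H3.3 variant and the linker histone H1.0. H3F3B had 1785 and 1997 CPM in human neurons and 936 and 1056 in RRM2-only progenitors (0.90 ± 0.07, edgeR adjusted p = 1.38e-09), and 2202 and 3319 CPM in mouse neurons and 1198 and 2253 in RRM2-only progenitors (0.49 ± 0.12, adjusted p = 0.00362). H1F0 had 269 and 151 CPM in human neurons and 113 and 72.3 in RRM2-only progenitors (1.13 ± 0.12, adjusted p = 6.77e-08), and 454 and 121 CPM in mouse neurons and 101 and 42.9 in RRM2-only progenitors (1.63 ± 0.32, adjusted p = 0.00272). H2AFZ, the H2A.Z gene, was lower, with 652 and 1023 CPM in human neurons and 1284 and 2239 in RRM2-only progenitors (-1.08 ± 0.07, adjusted p = 3.95e-11), and with a mouse change of -1.82 ± 0.17 (adjusted p = 9.24e-06). In all, 7 of the 11 were lower in human neurons and 6 of the 11 in mouse neurons, where 24.8% of human and 30.7% of mouse genes were lower.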

How the data were processed

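Whole-number UMI counts per gene and cell were deposited by the authors in 4 files, which are raw counts with no normalization. Per the submitters' processing notes, Cell Ranger 3.1.0 and the builds mm10 and hg38 were used; the gene annotation behind the counts is not given in the sources used here. All members and gene lists were chosen with earlier results of these data known. The rule for named members took those called in any comparison, the 10 with the highest mean CPM in neurons and in RRM2-only progenitors of each species and those that stayed on, with the others as counts; not every member it allows is named.

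Cells under 1000 UMIs, under 500 genes or over 10% mitochondrial UMIs were removed, Scrublet (scanpy 1.11.5) removed 13, 24, 5 and 32 doublets, and the 60 cell barcodes found in both species' parts of the mixed library were dropped. Cells under 7000 UMIs were left out (394, 344, 67 and 153) and the others thinned to 7000 for gates and shares. Median depths per deposited cell were 11137, 15766, 19122 and 28792 UMIs. CPM were made from unthinned summed counts.

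Counts summed per state and library part were tested with edgeR 4.0.16 (R 4.3.3, quasi-likelihood, TMM, filterByExpr), with the library part as a block since all states of a part come from the same library; Benjamini-Hochberg adjusted p under 0.05 was called. Shares have 95% Clopper-Pearson intervals, and the limit of a 0 is 3 counts. Scripts were tested on simulated data. DESeq2 1.42.0, other gates, filters and left-out replicates were alternatives.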

Additional observations from a re-analysis of the deposited data

Results flagged for a closer look

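For 11 symbols the change of neurons over RRM2-only progenitors differed between human and mouse by the test of the difference (human change minus mouse change, log2, edgeR, adjusted p under 0.05). Of the 44 members tested 5 were higher and 6 lower, near the 11.8% and 11.7% of all 11329 symbols tested. The count itself is therefore not read as a result about these genes. HIST3H2A differed by -2.004 (adjusted p = 0.000559), HIST1H1B by -2.54 (adjusted p = 0.00757) and HIST1H1E by -1.10 (adjusted p = 0.0178). HIST2H2AC differed by 4.49 (adjusted p = 0.00162), HIST2H2BE by 2.81 (adjusted p = 0.00757) and HIST1H2AC by 2.27 (adjusted p = 0.0200). HIST1H4H differed by -2.98 (adjusted p = 0.0345), with 4 and 3 UMIs in human neurons and 3 and 26 in human RRM2-only progenitors. HIST1H2AE differed by 4.69 (adjusted p = 0.0111), with 29 and 0 UMIs in human neurons and 4 and 2 in human RRM2-only progenitors, so the human replicates went opposite ways. HIST1H2BN differed by 3.34 (adjusted p = 0.0263), with 1 and 2 UMIs in mouse neurons and 0 and 23 in mouse RRM2-only progenitors. HIST1H2AI at -7.62 (adjusted p = 0.0267) and HIST1H3H at -5.86 (adjusted p = 0.0285) rest on human neurons with 0 UMIs, where the size of a fitted change depends on the prior count. With another random thinning 5 symbols were called.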

How the results depend on the processing

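Of 1645 alternative values for 145 single-gene results, 1626 kept their direction and 1183 were past the threshold. Depth limits the rarer members, and where a species keeps 1 part, the lone part is assumed to vary like the others. Fits with a replicate left out and the joint fit covered only the 50 members with symbols in all 4 files. The totals within a species cover more members, so these counts are not over the same genes. The called members for neurons against RRM2-only progenitors (28 human, 36 mouse, 11 for the difference between species) came to 16, 16 and 2 with gates on unthinned counts; without the replicate block they came to 6, 9 and 0, and with another thinning the difference gave 5. Leaving out 1 replicate gave 8 to 22, 8 to 33 and 4 to 10. For neurons against neither progenitors (21 human, 28 mouse) unthinned gates gave 7 and 3, no block 0 and 6, DESeq2 12 in human, STMN2 of at least 1 UMI 17 in mouse, and leaving out 1 replicate 2 to 14 and 1 to 23. For RRM2-only against neither progenitors (15 human, 3 mouse) DESeq2 gave 8 in human, both-positive cells in the RRM2 class 36 and 5, unthinned gates 7 and 5, the joint fit of both species (added after seeing the data) 8 and 1, no block 0 and 0, and leaving out 1 replicate 1 to 4 and 1. For TOP2A-only against RRM2-only progenitors in human (3) DESeq2 gave 1, another thinning 1, no low-count filter 6, and both-positive cells in the RRM2 class, the joint fit, no block and leaving out either replicate 0. The summed level of 508 CPM in human neurons was 528 over non-mitochondrial UMIs, 485 over symbols in all 4 files and 190.2 without HIST1H4C, and the 744 CPM of mouse neurons was 185 and 555 over common symbols and without the top member; the 2886 CPM of human RRM2-only progenitors was 460.2 without HIST1H4C. Shares with a histone UMI at 5000 UMIs and unthinned were 85.3% and 97.0% in human neurons (91.9%), 89.3% and 98.4% in mouse neurons (94.2%) and 85.5% and 99.8% in mouse RRM2-only progenitors (92.5%). A ratio of at least 1 left 2 of 4 mouse members that stayed on.

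These log2 values changed sign. Without human replicate 1 the species difference of HIST1H2AE was -2.41 (over single left-out replicates -2.41 to 5.76), without mouse replicate 2 that of HIST1H2BN -3.42 (-3.42 to 4.05), and without human replicate 2 that of HIST1H4H 0.46 (-4.41 to 0.46). In human, without replicate 2, HIST1H4D was -0.015 in RRM2-only over neither progenitors (2.53 without replicate 1) and HIST1H1D 0.25 in neurons over neither progenitors (-1.95 without replicate 1); unthinned gates gave HIST1H2BL 2.11 in neurons over RRM2-only progenitors. With both-positive cells in the RRM2 class, TOP2A-only over RRM2-only gave HIST1H1B -0.29, HIST1H3B -0.0064 and HIST2H2AC -0.028. In mouse neurons over RRM2-only progenitors, Hist1h1e was 0.17 with unthinned gates and Hist1h2bn 3.71 without replicate 2 (-3.83 without replicate 1). Over neither progenitors unthinned gates gave Hist1h2ac 0.27, Hist1h2an 4.05, Hist1h2ap 1.69, Hist1h2bh 1.96, Hist1h3d 5.78 and Hist1h4d 0.17, and without replicate 2 Hist1h2bk was 0.55 (-2.60 without replicate 1) and Hist1h3c 0.57 (-4.55). The cause was not tested.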
